A study of Homo sapiens with 8 samples.

Results

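Exon skipping was described in 8 receptor tyrosine kinase genes, INSR, FGFR1, FGFR2, FGFR3, MET, EGFR, ERBB2 and MST1R, by taking every skipped-exon event that carried one of these gene symbols. There were 118 such events, over 80 different exons, among 120573 events in all. The table for MCF10A cells held 81 of its 82355 events in these genes, the table for HMLE TWIST cells held 68 of 98244, and 31 were in both. RNA with poly(A) tails had been sequenced from 2 human mammary epithelial lines, each with 2 biological replicates per group. MCF10A is a non-tumorigenic line, and HMLE TWIST is an immortalized line that carries a retrovirally integrated pBabe-TWIST construct, so that the transcription factor TWIST is overexpressed from the vector in its control and treated cells alike. In each line, control cells received DMSO and treated cells received 10 µM emetine, a plant alkaloid that blocks protein synthesis, for 24 hours. HMLE cells without TWIST were not part of the comparison, so line and TWIST cannot be told apart.

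Receptor tyrosine kinases are membrane proteins that bind a growth factor outside the cell and phosphorylate tyrosines inside it. Alternative exons set what several of them bind: the IIIb and IIIc exons of the FGFR genes encode alternative C-terminal parts of the third immunoglobulin-like domain, with IIIb typical of epithelial and IIIc of mesenchymal cells, and INSR exon 11 separates the A form of the insulin receptor from the B form. In MST1R, the receptor for macrophage-stimulating protein also called RON, skipping of exon 11 or of exons 5 and 6 together gives known shortened receptors that signal without ligand. The study's title concerns RNA G-quadruplexes, four-stranded structures that need runs of guanines.

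Some of the exons on which the results turn are printed 5′ to 3′ on the coding strand, in lower case, with runs of at least 3 guanines in capitals. They were taken from GENCODE 29 transcripts whose exon and intron lengths matched the event.
MST1R exon 6: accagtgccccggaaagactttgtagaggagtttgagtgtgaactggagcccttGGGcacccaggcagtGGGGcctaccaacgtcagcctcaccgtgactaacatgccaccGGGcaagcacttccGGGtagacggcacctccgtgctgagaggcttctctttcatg
MST1R exon 11: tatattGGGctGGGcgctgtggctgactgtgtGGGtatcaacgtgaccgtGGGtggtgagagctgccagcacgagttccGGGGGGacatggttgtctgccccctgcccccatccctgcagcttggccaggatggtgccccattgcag
MET exon 10: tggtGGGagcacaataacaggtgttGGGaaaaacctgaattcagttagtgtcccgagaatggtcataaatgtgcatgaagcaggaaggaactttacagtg
MET exon 10, long form: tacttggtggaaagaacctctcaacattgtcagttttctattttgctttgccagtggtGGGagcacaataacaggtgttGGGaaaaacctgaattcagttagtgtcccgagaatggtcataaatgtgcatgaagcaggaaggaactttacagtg
INSR exon 11: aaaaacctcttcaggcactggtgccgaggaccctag
FGFR2 IIIb exon: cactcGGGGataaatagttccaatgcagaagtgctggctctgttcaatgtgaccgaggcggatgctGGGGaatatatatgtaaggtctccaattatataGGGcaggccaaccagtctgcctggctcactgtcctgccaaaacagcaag
ERBB2 exon 16: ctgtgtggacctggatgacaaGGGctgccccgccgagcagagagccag
MST1R exon 11 held 5 such guanine runs, and 4.46% of the 11268 listed exons within 10% of its length held as many. MST1R exon 6 held 4 runs, as many as 16% of 9806 exons of like length. Both forms of MET exon 10 held the same 2 runs, the FGFR2 IIIb exon held 3, ERBB2 exon 16 held 1 and INSR exon 11 held 0. Among exons described below but not printed, the FGFR1 IIIb exon held 2 runs, as many as 49.0% of 11476 exons of like length. The decay-annotated FGFR1 exon and the MET exon between exons 1 and 2 held 0. Of the 79 different exons of these genes with a sequence, 67 held at least 1 run (84.8%), against 67.1% of the 76558 exons of either table. This comparison was not matched for length. Among exons of like length, 25.6% held a run at the length of INSR exon 11 and 81.0% at that of MST1R exon 6. A run is a count of letters and not a measured structure.

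The inclusion level used below is the share of transcripts with the exon, from 0 to 1, estimated from the reads over its splice junctions after correction for the number of positions that each form offers. An event was tested where every library had at least 20 junction reads and the rarer form at least 10 in all. It was called where the adjusted p was under 0.05 and the level differed by at least 0.1. The libraries held 78412292 to 91259363 event reads, in which a read counts once for every event it touches.

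Coverage of the 8 genes differed between the lines. In the MCF10A libraries the deepest MST1R event had 419 to 785 reads, against 2 or 3 in the HMLE TWIST libraries. FGFR1 had the opposite pattern, with 19 to 60 reads in MCF10A libraries and 2682 to 3500 in HMLE TWIST libraries. EGFR, ERBB2 and MET were deep in both lines, and INSR and FGFR2 had events in the MCF10A table alone. FGFR2 reached 20 to 30 reads, FGFR3 11 to 83 and INSR 10 to 43 in the MCF10A libraries. The tables list events in which exons were skipped or joined differently, so a gene without an event is not thereby shown to be unexpressed, and fewer cells with a transcript cannot be told apart from fewer transcripts per cell.

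**Figure D1:**
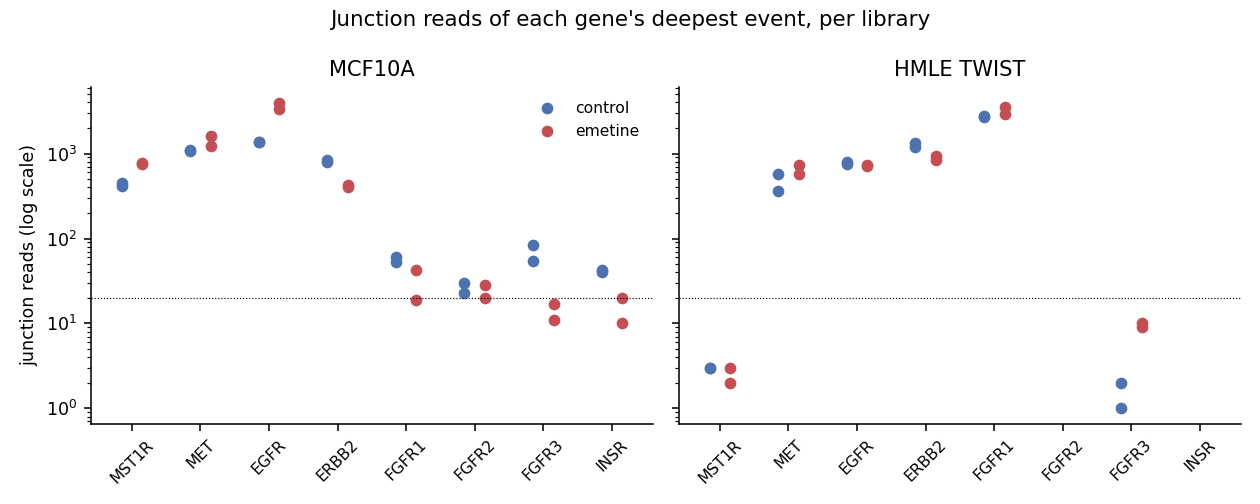
Junction reads of the deepest event of each receptor gene (y axis, log scale), 1 point per library, in control (blue) and emetine (red) cells, with a dotted line at 20 reads. MST1R was deep in MCF10A cells and had 2 or 3 reads in HMLE TWIST cells, FGFR1 was deepest in HMLE TWIST cells, and genes without points had no event.

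Of the 81 events of these genes listed for MCF10A, 24 met both minimums, 25 had too few reads and 32 were deep enough but had fewer than 10 reads of the rarer form. Of the 68 listed for HMLE TWIST cells, 24 met both, 11 had too few reads and 33 had too few of the rarer form. The changes of this last kind ran from -0.0317 to 0.0399 in HMLE TWIST cells and, in MCF10A cells, from -0.110 for an MST1R exon 9 event to 0.205 for the FGFR2 alpha exon.

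The labelled cell types were checked by junction reads of marker genes. Of 12 epithelial markers, 9 had an event with at least 20 reads in every MCF10A library, KRT5 and CDH1 included, against 0 in HMLE TWIST cells, where KRT5, KRT14 and KRT17 had no event and CDH1 had 0 to 7 reads. Of 11 mesenchymal markers, 10 reached that depth in HMLE TWIST cells and 3 in MCF10A cells. Summed over markers, epithelial reads in MCF10A were 69711 and 71558 in control and 52315 and 51803 in emetine libraries. Mesenchymal reads were 26790 and 30131 in control and 6503 and 7058 in emetine libraries. These sums rest mostly on 1 gene each, KRT5 with 52490 and VIM with 24923 reads in control library 1. The epithelial markers did not move together. With emetine KRT17, CLDN1 and TP63 had more reads, and KRT5, KRT14, CDH1, ITGB4, ESRP1 and ESRP2 had fewer. The HMLE TWIST libraries had 19 to 51 epithelial reads, and 360873 and 365053 mesenchymal reads in control and 204341 and 180201 in emetine libraries. ESRP1 and ESRP2, splicing factors known to favour the FGFR2 IIIb exon, were read 1046 and 958 times (ESRP1) and 744 and 682 times (ESRP2) without emetine in MCF10A, against 375 and 441 (ESRP1) and 247 and 236 times (ESRP2) with it. Neither exceeded 9 reads in HMLE TWIST libraries. The part of these shifts in the results below was not tested.

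In MCF10A cells 3 receptor events were called for lower inclusion with emetine, those of MST1R exon 6, MST1R exon 11 and the long form of MET exon 10. The 100-base event of MET exon 10 stayed under the size set for a call. These were 3 of 24 tested events, and no tested event was called for higher inclusion. Of all 25522 events tested in MCF10A, 13.0% were called and 5.15% were called lower, so the count of 3 lies near the background. With no requirement on size, 5 of the 24 events (20.8%) had an adjusted p under 0.05, against 33.4% of all events. In the quasi-binomial model 7 (29.2%) had an unadjusted p under 0.05, against 43.7% of all events. The median change over the 24 events was -0.00379 and over all events -0.000168.

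**Figure D2:**
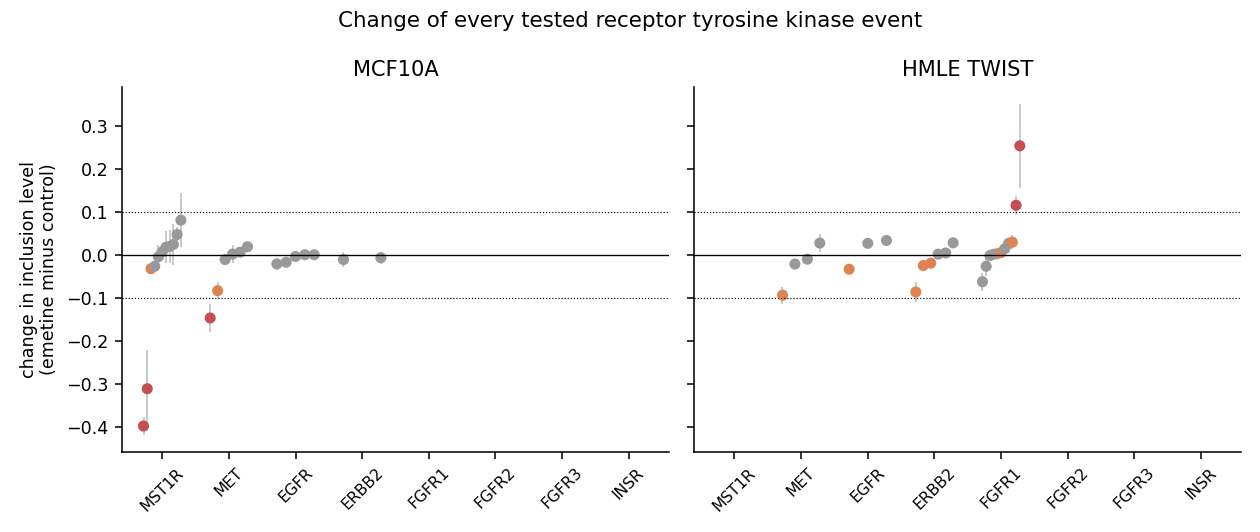
Change in inclusion level (y axis, emetine minus control, bars ± 1 SE from 2 replicates per group) of each tested event, by gene, in MCF10A (left) and HMLE TWIST cells (right). Red points were called, orange points had an adjusted p under 0.05 with a change under 0.1 (dotted lines), and grey points did neither; the called events are 2 of MST1R and 1 of MET in MCF10A and 2 of FGFR1 in HMLE TWIST.

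MST1R exon 6 (chr3:49934953-49935118, GRCh37, minus strand) showed the largest change of the tested receptor events in MCF10A. The exon has 166 bases, lies in the extracellular part of the coding sequence and shifts the reading frame when skipped alone. The controls had 323 and 300 inclusion reads beside 20 and 11 skipping reads, levels of 0.890 and 0.932. The emetine libraries had 292 and 301 inclusion reads beside 139 and 142 skipping reads, levels of 0.512 and 0.515. The groups did not overlap, and skipping reads rose at similar inclusion reads. The mean level fell by 0.397 (SE 0.0210), from 0.911 ± 0.0296 to 0.513 ± 0.00159 (SD, n = 2) (adjusted p = 6.43e-06, quasi-binomial model; 0.0187 by limma). This exon carries 4 of the guanine runs printed above, and a link of such runs to the change was not tested.

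MST1R exon 11 (chr3:49933394-49933540, minus strand) encodes 147 in-frame bases, whose loss gives one of the ligand-independent receptors. Levels were 0.782 and 0.721 in the controls, from 31 and 45 skipping reads, and 0.355 and 0.526 with emetine, from 168 and 134 skipping reads. Both emetine libraries lay below both controls but were far apart from each other. The mean fell by 0.311 (SE 0.0909), from 0.752 ± 0.0427 to 0.441 ± 0.121 (SD, n = 2; adjusted p = 0.00200, quasi-binomial model). The call was lost in limma (adjusted p = 0.0673), with the event's own dispersion where larger (adjusted p = 0.0540), and with no filter beyond 1 read (adjusted p = 0.0694).

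Skipping of exons 5 and 6 together, which removes 327 bases and keeps the frame, is read from the event of exon 5 (chr3:49935484-49935644, 161 bases). Reads that join exon 4 to exon 7 numbered 0 and 0 in the controls and 9 and 4 with emetine, beside 179 to 505 reads that include exon 5. Its level was 1 in each control and 0.963 and 0.984 with emetine, a change of -0.0262 (SE 0.0106) that missed the threshold (adjusted p = 0.0810, quasi-binomial model) but passed it by limma (adjusted p = 0.0463). MST1R exon 2 fell by 0.0318 (SE 0.000807, adjusted p = 0.0105, quasi-binomial model) where it was joined to exon 3, below the size set for a call. The other 7 tested MST1R events changed by -0.00411 to 0.0809 and none passed the test. In HMLE TWIST cells the events of exons 6 and 11 had at most 3 reads per library for each form and could not be tested.

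MET, the receptor for hepatocyte growth factor, has an exon 10 with 100 bases (chr7:116399445-116399544, plus strand) and a form that begins 54 bases earlier (chr7:116399391-116399544). The 54 extra bases keep the frame, while skipping of either form shifts it. The events of the forms share their skipping reads, which in MCF10A cells numbered 15 and 6 without and 86 and 52 with emetine, and also the junction to exon 11, so they are not independent. The long-form event had levels of 0.949 and 0.980 in the controls and 0.789 and 0.848 with emetine, without overlap. Its mean fell by 0.146 (SE 0.0331), from 0.964 ± 0.0214 to 0.818 ± 0.0416 (SD, n = 2) (adjusted p = 6.25e-04, quasi-binomial model; 0.0465 by limma). Without the length correction the change was -0.0822, under the size set for a call. The 100-base event, which has 1072 to 1259 inclusion reads per library, fell by 0.0830 (SE 0.0198, adjusted p = 6.72e-04, quasi-binomial model) and so stayed under the size set for a call. Since reads over the junction to exon 11 count for both forms, the events show a larger share of reads that skip exon 10. They do not show which form became rarer.

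The other 3 tested MET exons of numbered position in MCF10A cells, 2, 18 and 19, changed by -0.0105 to 0.00662 and did not pass.

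In HMLE TWIST cells the long form of MET exon 10 had levels of 0.981 and 0.970 in the controls and 0.958 and 0.951 with emetine. The change of -0.0209 (SE 0.00611) did not pass (adjusted p = 0.339, quasi-binomial model). The difference between the responses of the lines, 0.125, did not pass either (adjusted p = 0.537, quasi-binomial model with a line by treatment term), so the responses are not shown to differ. MET exon 14, the exon whose skipping stabilises the receptor in some cancers, occurred only as a flanking exon of the exon 13 and exon 15 events in HMLE TWIST cells, and its own inclusion level was not analysed here.

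**Figure D3:**
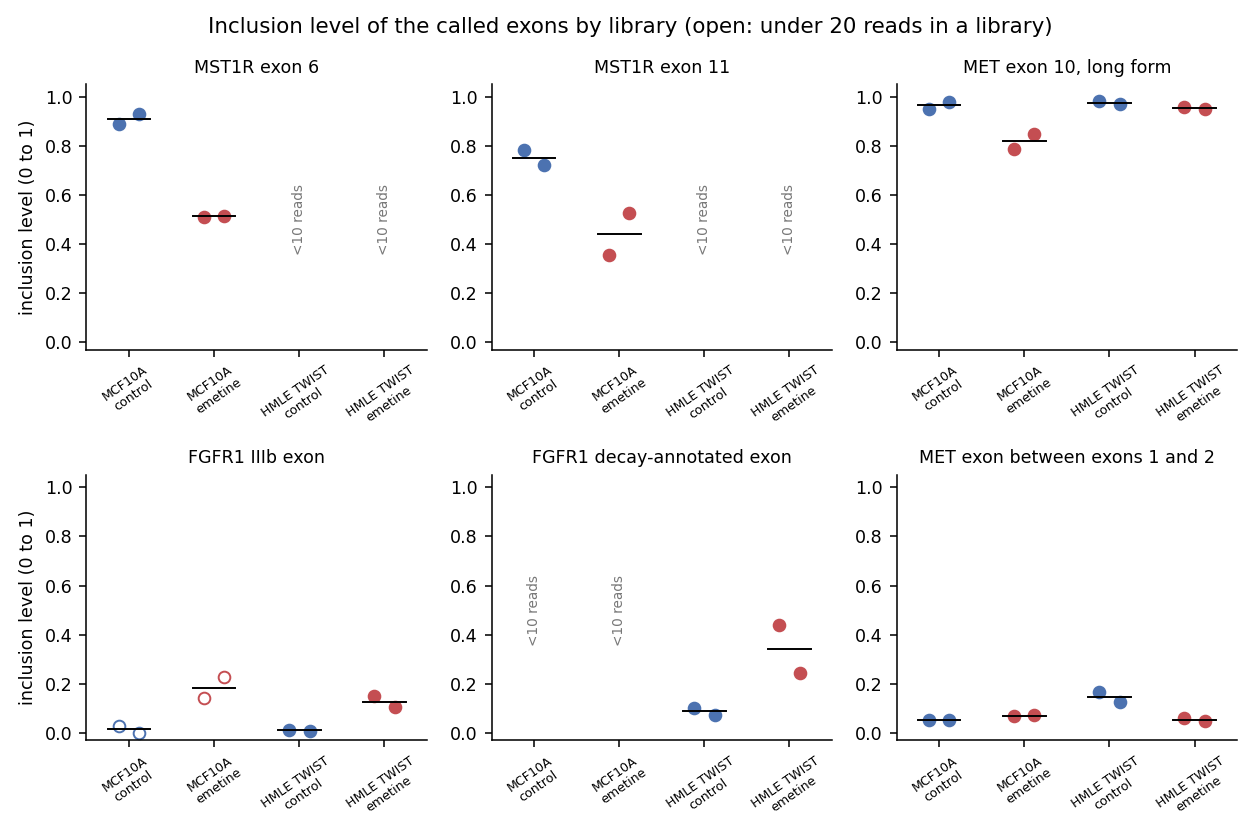
Inclusion level (y axis, 0 to 1) of each exon called within a line, and of the MET exon between exons 1 and 2, called for a different response of the lines, in the 4 groups, 1 point per library, with a bar at the mean of 2 replicates. Open points mark events with under 20 reads in a library of that line, and levels with under 10 are left out. MST1R exons 6 and 11 and MET exon 10 were lower with emetine in MCF10A cells, and the FGFR1 IIIb and decay-annotated exons were higher with emetine in HMLE TWIST cells.

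In HMLE TWIST cells emetine was followed by higher inclusion of 2 FGFR1 exons, the IIIb exon and an exon annotated only in transcripts marked as targets of nonsense-mediated decay. These were 2 of 24 tested events of the 8 genes and no tested event was called lower. Of all 30290 events tested in this line, 14% were called and 6.11% were called higher, so the count is again near the background. With no requirement on size, 9 of the 24 events (37.5%) had an adjusted p under 0.05, against 35.6% of all events. In the quasi-binomial model 11 (45.8%) had an unadjusted p under 0.05, against 46.6% of all events. The median change was 0.00252 over the 24 events and -0.00315 over all events.

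FGFR1 is a receptor for fibroblast growth factors. Its IIIb exon (chr8:38280543-38280693, minus strand, 151 bases) lies between exon 7 and the IIIc exon and is annotated in 2 coding transcripts. Where it was joined to the IIIc exon, the controls had 27 and 22 inclusion reads beside 1159 and 1126 skipping reads, and the emetine libraries had 390 and 331 beside 1119 and 1430. The levels were 0.0115 and 0.00967 in the controls and 0.148 and 0.104 with emetine, with no overlap. The mean rose by 0.115 (SE 0.0224), from 0.0106 ± 0.00130 to 0.126 ± 0.0316 (SD, n = 2) (adjusted p = 9.49e-05, quasi-binomial model; 0.0123 by limma). Without emetine library 1 the change was 0.0931, just under the size set for a call. In MCF10A cells the same event was too shallow to test at 20 reads, with 1 and 0 inclusion reads in the controls and 3 and 7 with emetine. Its level there changed by 0.170 (SE 0.0439), which passed when 10 reads per library sufficed (adjusted p = 0.0430, quasi-binomial model), and did not pass with no filter beyond 1 read (adjusted p = 0.124). The authors' deposited FDR for it was 5.18e-04.

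The IIIb and IIIc exons normally replace each other, which can be read from events with the same outer exons. Among FGFR1 reads of this kind in HMLE TWIST cells, IIIb made up 1.08% (24 of 2212 reads, Wilson 95% interval 0.730 to 1.61) and 0.824% (18 of 2185, 0.522 to 1.30) in the controls. With emetine the share was 8.21% (194 of 2364, 7.17 to 9.38) and 6.04% (180 of 2980, 5.24 to 6.95). IIIc reads numbered 2188 and 2167 in the controls and 2170 and 2800 with emetine, and reads without either exon numbered 0 to 2. Reads from IIIb into IIIc exceeded those from IIIb into exon 9 by 3 and 4 in the controls. With emetine they exceeded them by 196 and 151, so most reads that left IIIb ran directly into the IIIc exon. The excess of 196 was above all 194 IIIb reads of that library, which join exon 7 to IIIb or IIIb to exon 9. A transcript with IIIb and IIIc in series is neither of the usual forms. The IIIb share counts its reads from exon 7 into IIIb. A higher share thus does not show more of the usual IIIb form. The intervals cover counting error only.

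In FGFR2, whose IIIb form binds keratinocyte growth factor, the same comparison was possible in MCF10A cells at low depth. The IIIb exon, printed above, lies at chr10:123278196-123278343 on the minus strand and has 148 bases. IIIb made up 96.8% (30 of 31 reads, 83.8 to 99.4) and 94.7% (18 of 19, 75.4 to 99.1) in the controls, a mean of 95.8% ± 1.44 (SD, n = 2). With emetine it made up 38.9% (7 of 18, 20.3 to 61.4) and 47.6% (10 of 21, 28.3 to 67.6), a mean of 43.3% ± 6.17 (SD, n = 2). The groups did not overlap, nor did the intervals of any control and emetine library. With 2 libraries a group an exact permutation test cannot go below p = 0.333, and none of the 7 FGFR2 events met the minimums for a test. The authors' deposited FDR was 3.85e-07 for the IIIb exon joined to the IIIc exon, at 6 to 14 reads per library. The fall in IIIb share came with fewer IIIb reads and with IIIc reads that went from 1 and 1 to 11 and 11, while reads without either exon went from 0 and 0 to 4 and 1. ESRP1 and ESRP2 reads, like those of some but not all epithelial markers, were lower with emetine too, and a link was not tested.

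All 43 and 82 FGFR3 reads of this kind came from IIIb in the MCF10A controls (Wilson 95% lower bounds 91.8% and 95.5%). With emetine it had 8 of 10 and 9 of 10 IIIb reads, 80% (49.0 to 94.3) and 90% (59.6 to 98.2), and the intervals overlap those of the controls except between emetine library 1 and control library 2. Joined to the IIIc exon, IIIb had 10 and 3 inclusion reads in the emetine libraries. The IIIb share of FGFR3, too, may therefore count transcripts with IIIb and IIIc in series. The FGFR3 reads were also fewer with emetine, and in HMLE TWIST cells the gene had at most 10 reads in an event.

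**Figure D4:**
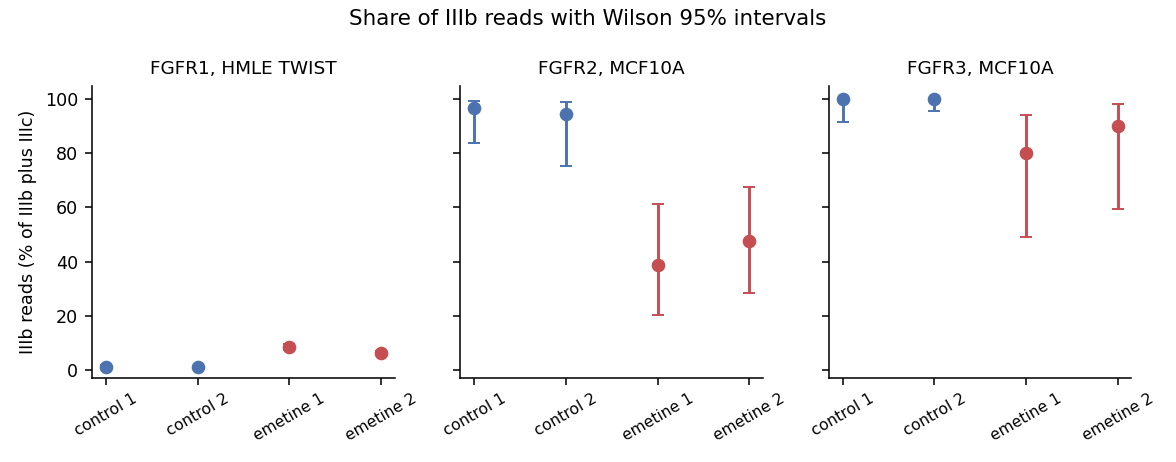
Share of IIIb reads among IIIb and IIIc reads (y axis, percent) for FGFR1 in HMLE TWIST cells and FGFR2 and FGFR3 in MCF10A cells, 1 point per library with its Wilson 95% interval. FGFR1 stayed mostly IIIc, with 1.08% and 0.824% IIIb in the controls and 8.21% and 6.04% with emetine, and FGFR2 went from 96.8% and 94.7% to 38.9% and 47.6%. The IIIb reads also count any transcripts with IIIb and IIIc in series, which for FGFR1 were seen with emetine.

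The other called FGFR1 exon (chr8:38286765-38286908, minus strand, 144 bases) precedes exon 4 and is annotated in 2 decay-target transcripts and in no coding one. Joined to the alpha exon, its levels in HMLE TWIST cells were 0.101 and 0.0739 without and 0.438 and 0.244 with emetine. Both emetine libraries lay above both controls, with the spread between them larger than the highest control level. The mean rose by 0.254 (SE 0.0976), from 0.0874 ± 0.0190 to 0.341 ± 0.137 (SD, n = 2) (adjusted p = 0.00626, quasi-binomial model; 0.0471 by limma). Without emetine library 1 the rise was 0.157, and with the event's own dispersion where larger the call was lost (adjusted p = 0.0582). Joined to exon 2 instead, the same exon rose by 0.0299 (SE 0.0165, adjusted p = 0.0242, quasi-binomial model) from a mean level of 0.00973. A rare 68-base exon between exon 2 and the alpha exon rose by 0.00573 (SE 0.00223, adjusted p = 0.0399, quasi-binomial model), with 1 and 3 inclusion reads in the controls and 7 and 19 with emetine. The other 7 tested FGFR1 events changed by -0.0621 to 0.0272 and did not pass.

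The FGFR1 alpha exon (chr8:38287200-38287466, 267 bases) encodes the first immunoglobulin-like domain, which is known to lower ligand affinity. Between exon 2 and exon 4 in HMLE TWIST cells it had levels of 0.127 and 0.127 in the controls and 0.154 and 0.130 with emetine, from 1117 to 1584 reads per library. Most reads of this event thus joined exon 2 to exon 4 without the exon in control and treated cells. The change of 0.0149 (SE 0.0123) did not pass (adjusted p = 0.359, quasi-binomial model). In MCF10A cells this event had 9 to 22 reads per library and was not tested. The FGFR2 alpha exon (chr10:123324952-123325218, 267 bases) in MCF10A cells was skipped in 4 and 2 reads in the controls and in 0 and 0 with emetine, beside 20 to 28 inclusion reads, which limits what can be seen.

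INSR, the insulin receptor, had 1 event, exon 11 in MCF10A cells (chr19:7150508-7150543, minus strand, 36 bases). The controls held 20 inclusion beside 20 skipping reads and 22 beside 21, levels of 0.425 and 0.436. The emetine libraries held 0 inclusion beside 10 skipping reads and 2 beside 18, levels of 0 and 0.0759. The controls thus carried forms A and B at similar levels, and nearly all reads with emetine came from form A, which lacks the exon. As a share of reads, inclusion was 50% (Wilson 95% interval 35.2 to 64.8) and 51.2% (36.8 to 65.4) in the controls, and 0% (up to 27.8; a count of 0 allows up to 30%) and 10% (2.79 to 30.1) with emetine. The level changed by -0.393 (SE 0.0384). With 10 reads in emetine library 1 the event missed the minimum depth. When 10 reads per library sufficed, the event was called (adjusted p = 0.0125, quasi-binomial model). It did not pass with no filter beyond 1 read (adjusted p = 0.0635), and without emetine library 1 the adjusted p was 0.208, or 0.0443 with the prior added after seeing the data. The authors' deposited table gives an FDR of 2.97e-06. With the minimum of 10 reads 27 receptor events were tested in MCF10A cells and 5 were called, the further ones being INSR exon 11 and the FGFR1 IIIb exon. The whole table had 3499 calls at that minimum, and 3329 calls, 13.0% of tested events, at 20 reads.

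**Figure D5:**
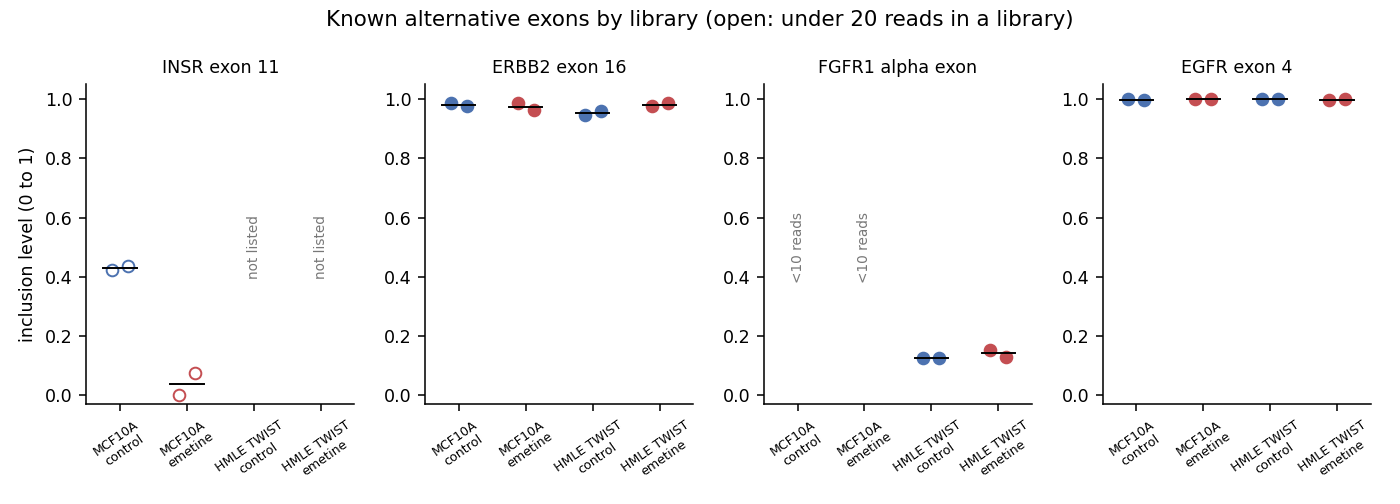
Inclusion level (y axis, 0 to 1) of 4 known alternative exons in the 4 groups, 1 point per library, with a bar at the mean of 2 replicates and open points where a library of that line had under 20 reads; levels with under 10 reads in a library are left out. INSR exon 11 was lower with emetine in MCF10A cells, ERBB2 exon 16 and EGFR exon 4 stayed near 1 in every group, and the FGFR1 alpha exon lay between 0.127 and 0.154 in HMLE TWIST cells.

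ERBB2, a coreceptor of the EGFR family, is known for an oncogenic form without exon 16 (chr17:37876040-37876087, plus strand, 48 bases). In MCF10A cells the exon had levels of 0.986 and 0.976 in the controls and 0.987 and 0.962 with emetine, which overlap (change -0.00632, SE 0.0135, adjusted p = 0.794, quasi-binomial model). The HMLE TWIST levels were 0.947 and 0.959 in the controls and 0.976 and 0.986 with emetine. These did not overlap, but the change of 0.0283 (SE 0.00771) did not pass (adjusted p = 0.0596, quasi-binomial model). The authors' deposited FDR for it was 0.00988, and the change lay under the size set for a call. The lowest level of exon 16 in the 8 libraries was 0.947.

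Smaller falls in ERBB2 inclusion passed the test in HMLE TWIST cells. Exon 6 (chr17:37866339-37866454, 116 bases) had 0 and 1 skipping reads in the controls and 30 and 21 with emetine, beside 481 to 942 inclusion reads. Its level fell by 0.0860 (SE 0.0239), from 0.999 ± 0.00150 to 0.913 ± 0.0338 (SD, n = 2; adjusted p = 0.00122, quasi-binomial model). Exon 24 fell by 0.0245 (SE 0.00542, adjusted p = 0.00409, quasi-binomial model). Exon 10 fell by 0.0190 (SE 0.00373, adjusted p = 0.00920, quasi-binomial model). All of these exons shift the frame when skipped and lay below the size set for a call. In MCF10A cells exon 6 had 0 to 6 skipping reads, with levels of 0.993 and 1 in the controls and 0.962 and 0.993 with emetine, and was not tested.

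The EGFR exons tested were nearly always included, with levels of at least 0.948 in every library. Exon 4 (chr7:55214299-55214433, 135 bases), which is skipped in a known tumour variant, had 0 to 2 skipping reads beside 686 to 3342 inclusion reads in the 8 libraries. The tested EGFR event with the most reads in MCF10A, exon 12, changed by -0.00346 (SE 0.00422, adjusted p = 0.408, quasi-binomial model). Exon 14 in HMLE TWIST cells fell by 0.0331 (SE 0.00304, adjusted p = 0.0146, quasi-binomial model), with 0 and 1 reads in the controls and 10 and 9 with emetine that join exon 11 to exon 15. Such reads leave out exons 12 to 14 together, so they do not show skipping of exon 14 alone. In MCF10A cells the same junction had 2 and 5 reads in the controls and 18 and 37 with emetine, and the change of -0.0167 (SE 0.0120) did not pass (adjusted p = 0.162, quasi-binomial model). EGFR reads themselves were more numerous with emetine in MCF10A cells, where the deepest event had 1356 and 1363 reads in the controls and 3993 and 3315 with emetine.

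The untreated lines were compared over the events listed for both. Of 10 receptor events tested, 0 were called different between HMLE TWIST and MCF10A controls, against 6.48% of 20516 events. At an unadjusted p under 0.05 the quasi-binomial model gave 2 of the 10, against 27.3% of all events. Limma gave 4 of the 10, against 21.0% of all events, and called 0 of the 10. The MET exon between exons 1 and 2 (chr7:116335804-116335853, 50 bases), which precedes the start codon, differed most, with levels of 0.0515 and 0.0508 in MCF10A and 0.165 and 0.128 in HMLE TWIST controls. Its difference of 0.0950 passed the test (adjusted p = 0.00706, quasi-binomial model) but not the size, and limma gave an adjusted p of 0.160. MST1R, INSR, FGFR2 and FGFR3 had no event deep enough in both lines, so the exons that changed most with emetine in one line could not be compared.

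The same MET exon was the one receptor event of 14 tested whose response to emetine was called different between the lines, against 1.62% of 33781 events. Its level went from 0.0515 and 0.0508 to 0.0672 and 0.0736 in MCF10A cells, a change of 0.0193 (SE 0.00322, adjusted p = 0.311, quasi-binomial model). Its level in HMLE TWIST cells went from 0.165 and 0.128 to 0.0590 and 0.0468, a change of -0.0933 (SE 0.0195, adjusted p = 0.0178, quasi-binomial model; 0.0586 in limma). The emetine levels of the lines were thus closer than their control levels. The difference of the changes was -0.113 (adjusted p = 0.0338, quasi-binomial model), and limma gave an adjusted p of 0.285. The call was also lost whenever any 1 of the 8 libraries was left out.

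Other genes of the pathway gave a background for these exons. Among 41 other receptor tyrosine kinases, 10 had tested events in MCF10A and 11 in HMLE TWIST cells. In MCF10A cells 2 of 38 events were called higher and 6 lower, or 21.1% called against 13.0% of all events, with a median change of -0.00794. Of 40 events in HMLE TWIST cells, 2 were called higher and 2 lower, or 10% against 14% of all events, with a median of -0.0126. Lower inclusion of an AXL exon was called in both lines: the level of this 140-base exon changed by -0.135 in MCF10A and -0.175 in HMLE TWIST cells (adjusted p = 2.78e-05 and 1.22e-06, quasi-binomial model). DDR1, a collagen receptor, had the largest change of this list in MCF10A cells, -0.464 for a 173-base exon, with levels of 0.686 and 0.790 in the controls and 0.276 and 0.273 with emetine.

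Adaptors and feedback regulators that act below the receptors had 0 events called higher and 5 lower of 73 in MCF10A cells, or 6.85% against 13.0% of all events, with a median change of -0.00290. Of 58 events in HMLE TWIST cells, 1 was called higher and 4 lower, or 8.62% against 14% of all events, with a median of -0.00985. A 45-base exon of SOS1, the exchange factor that activates RAS, fell from 0.879 and 0.876 to 0.520 and 0.507 in MCF10A cells, and from 0.943 and 0.947 to 0.650 and 0.526 in HMLE TWIST cells. Of 14 ligand genes, 2 had tested events in each line. Of their 2 events in MCF10A and 9 in HMLE TWIST cells 0 were called, against 13.0% and 14% of all events. In the quasi-binomial model 0 had an unadjusted p under 0.05, against 43.7% and 46.6% of all events.

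Of 18 splicing factors listed for their known action on such exons, 18 had tested events in MCF10A and 16 in HMLE TWIST cells. In MCF10A cells 9 of 80 tested events were called higher and 7 lower, or 20% against 13.0% of all events, with a median change of 0.000730. Of 90 events in HMLE TWIST cells, 8 were called higher and 8 lower, or 17.8% against 14% of all events, with a median of 0.000408. SRSF1, known to promote skipping of MST1R exon 11, had a 187-base exon that changed by -0.140 in MCF10A and -0.110 in HMLE TWIST cells (adjusted p = 2.36e-06 and 0.00104, quasi-binomial model). A 456-base exon of SRSF3 rose from 0.0232 and 0.0238 to 0.589 and 0.478 in MCF10A cells, and from 0.0329 and 0.0413 to 0.538 and 0.475 in HMLE TWIST cells. A 139-base exon of HNRNPH1, which binds runs of guanines, changed by -0.404 in MCF10A and -0.406 in HMLE TWIST cells. A 179-base exon of the same gene rose, by 0.326 in MCF10A and 0.513 in HMLE TWIST cells. Whether these shifts bear on the receptor exons was not tested.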

How the data were processed

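Per the submitters' processing notes, reads were aligned to GRCh37 with STAR 2.5.3a. Per the file headers, the deposited tables are rMATS skipped-exon output (version not given in the sources used here), with junction counts of inclusion and skipping for the 2 libraries of each group in 1 cell, p-values and FDR by the authors, and a difference of inclusion levels, used here as the authors' deposited score. Which value in a cell is replicate 1 is not labelled, so the first listed was called library 1. The 4 deposited columns of inclusion levels per library were not used. Replicates were biological, per the labels. The p-values set a difference against the spread between these libraries, which for each event was drawn towards that of all tested events.

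Inclusion levels were computed from the junction counts divided by the deposited effective lengths. Each event of a whole table was fitted with a quasi-binomial logistic model, its dispersion moderated over all tested events with squeezeVar of limma 3.58.1 and floored at 1, with an F test and Benjamini-Hochberg adjustment. The limma alternative was fitted on log2 odds with 0.5 added to each count. Fits ran in Python 3.11.15 and R 4.3.3 and were tested on simulated data. Exons were matched to GENCODE 29 by gene, exon length and intron lengths, which succeeded for 117 of the 118 receptor events and 97.5% of all; coordinates are those of the deposited tables, no exon sequence of chromosome 8 is printed, and 1 further exon sequence is not reported here. Exons are numbered as in the principal transcript of each gene. Named in full were the known alternative exons, every called event and, for a gene without a call, its tested event with the most reads. The genes, exon list and gene lists were chosen with earlier results of these data known. Alternatives were limma, minimum depths of 10 and 50 reads or 1, other dispersions, no length correction, leaving out each library, a replicate block and the authors' FDR; a prior estimated only from events with at least 1 expected read of each form was added after seeing the data.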

Additional observations from a re-analysis of the deposited data

Results flagged for a closer look

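The response of the MET exon between exons 1 and 2 to emetine differed between the lines by the line by treatment term of the quasi-binomial model. The difference of the changes, HMLE TWIST minus MCF10A, was -0.113 (adjusted p = 0.0338): the level was higher with emetine than in the controls in 2 of 2 MCF10A libraries and lower in 2 of 2 HMLE TWIST libraries. Adjusted p ranged from 0.0200 to 0.758 over the alternatives, and the term passed in 4 of 26 of them. Those were the other read minimums and no length correction, which leaves the p-value as it was. No change of the model, the dispersion or the set of libraries passed.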

How the results depend on the processing

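Counts of called receptor events were 3 in MCF10A, 2 in HMLE TWIST, 0 between the controls and 1 for the difference of responses. The event's own dispersion alone gave 0, 0, 0 and 0, and the plain replicate block also gave 0, 0, 0 and 0, since it called 0 events in the whole tables. With the block and the prior from events with both forms expected, the counts were 3, 2, 0 and 0. The replicate numbers share only a number: deviations of same-numbered libraries correlated by 0.0390 in MCF10A, 0.0270 in HMLE TWIST and 0.0248 between the controls. A minimum of 10 reads gave 5 calls in MCF10A. The event's own dispersion where larger gave 1 in HMLE TWIST and 0 for the difference of responses, limma and the added prior each gave 0 for the difference of responses, and no length correction gave 1 between the controls.

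Leaving out 1 library gave 0 to 3 calls in MCF10A, 0 to 3 in HMLE TWIST, 0 between the controls and 0 for the difference of responses. The 0 counts within a line came from leaving out either emetine library, where 0 events of the whole table passed; with the added prior the ranges were 3 to 4, 1 to 3, 0 to 1 and 0. The change of ERBB2 exon 16 in MCF10A, -0.00632, ran from -0.0187 without emetine library 1 to 0.00606 without emetine library 2, uncalled in each case. Over the whole tables limma called 2012 events in MCF10A, 3012 in HMLE TWIST, 38 between the controls and 0 for the difference of responses, against 3329, 4246, 1330 and 546. No event met the minimums for a test for INSR, FGFR1, FGFR2 and FGFR3 in MCF10A or for MST1R and FGFR3 in HMLE TWIST cells.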
